A study of Chlamydomonas reinhardtii with 12 samples.

Results

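Old cultures of wild-type Chlamydomonas reinhardtii were compared with fresh ones across all genes of the deposited count table. The comparison uses 6 of the 12 libraries of the series, 3 from control cultures grown for 24 h and 3 from nutritional stress cultures grown for 14 days. All 6 came from wild-type strain CC-1690 in liquid TAP medium (Tris-acetate-phosphate) at 25 °C under 50 µmol photons per square metre and second. The other 6 libraries came from the inositol pyrophosphate-deficient strain vip1-1 and carry the same strain label. They entered the low-count filter, the scaling, the estimate of the spread and the choice of a group of abundant features described below. They were not part of the contrast, and their own values are given only for transcript length. Culture age and nutrient state changed together, so their parts in any difference cannot be told apart. Of the 17741 gene IDs in the table, 15286 had enough counts to be tested, and 1024 had no count in any wild-type library.

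Chlamydomonas is a single-celled green alga with a large chloroplast and a pair of cilia. It can live by photosynthesis, by taking up acetate, or by both together, and TAP medium feeds it in both ways. As a culture ages in the same medium, nutrients are drawn down, shading deepens and division slows. In this alga, nutrient limitation is known to reduce photosynthetic proteins and ribosomes, to raise uptake systems for the missing nutrient, and to favour stores of starch and oil. None of the sources used here pairs a gene ID with a symbol, a product or a sequence. Genes are therefore given by ID alone, no role is assigned to any of them, and no sequence is shown.

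Total counts ran from 9749837 to 21840013 in the control libraries and from 13621782 to 14538410 in the stress libraries. A group of 6 very abundant features took between 9.32% and 71.0% of the counts in controls and between 26% and 66.5% under stress. This left between 2829344 (control replicate 1) and 19804883 (control replicate 3) counts for all other genes. Levels are given as CPM, counts scaled to a common library size, with TMM factors (trimmed mean of M values) that correct for differences in composition. On that scale 3 counts equal 0.892 CPM in control replicate 1 and 0.11 CPM in control replicate 3. The labels call the replicates biological but do not say that they came from separate cultures, so p-values measure the spread between these libraries. Spearman's rho across genes was 0.981 between stress replicates 1 and 2, and 0.894 and 0.906 between each of them and replicate 3. Between controls it was 0.833, 0.891 and 0.898.

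The change of state reached 26% of the genes tested. Of 15286 genes, 3979 passed the threshold of 0.05 on p-values from edgeR's quasi-likelihood test, adjusted by Benjamini-Hochberg over all of them, and are named called genes. Of these, 2124 (13.9% of the genes tested) were higher in old cultures and 1855 (12.1%) were lower. Among the called genes the median log2 fold change was 1.86 for the higher and -1.65 for the lower, against 0.19 over all genes tested. Changes of 4 or more log2 units were reached by 310 of the higher and 238 of the lower genes, and changes of 6 or more by 143 and 101. The lowest library of one group lay above the highest library of the other in 3835 of the 3979 called genes. Over all 15286 genes tested, the called ones included, this held for 6480 (42.4%). The same libraries made the calls, so the separation is no further support for them.

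The count of calls was 1972 when only the 6 wild-type libraries were fitted and 1035 when libraries were scaled by their totals alone. With limma voom and sample weights it was 6151. Leaving out 1 library gave between 2740 calls (without stress replicate 2) and 5263 (without control replicate 3). The count of higher genes fell by over 1.5 times, to 1298 and 1368, without control replicate 2 and without stress replicate 2. Genes called in both the full and a reduced fit kept their direction in every such fit.

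**Figure D1:**
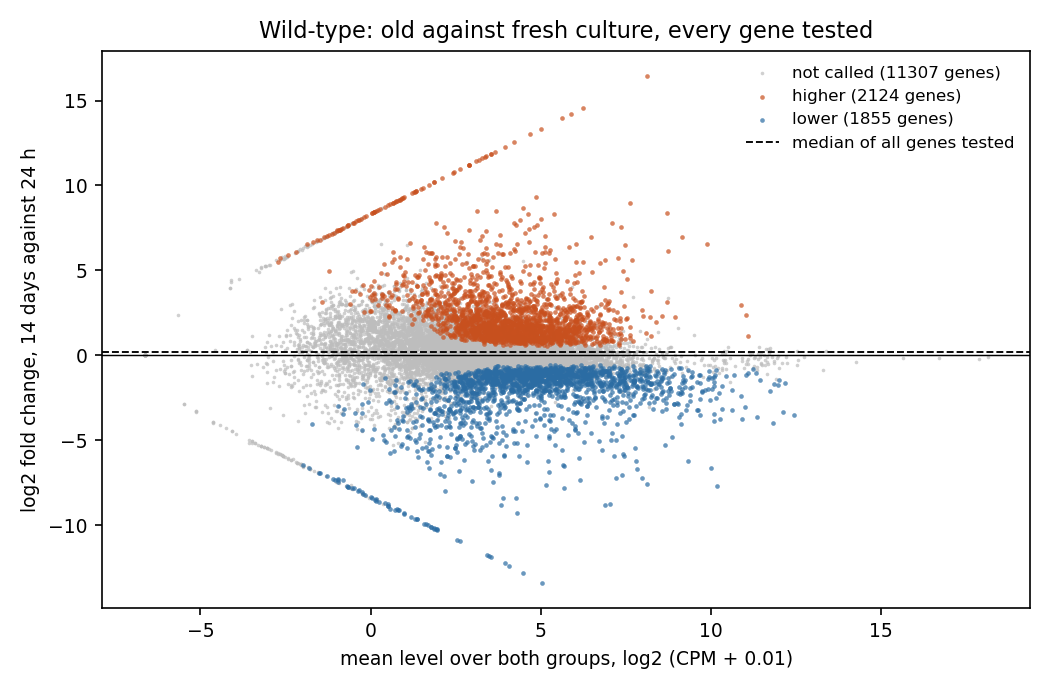
Log2 fold change of every gene tested, 14 days against 24 h, plotted against its mean level over both groups in log2 (CPM + 0.01). Orange points are the 2124 genes called higher, blue points the 1855 called lower and grey points the rest, and the dashed line is the median of 0.19. The straight edges are genes with no count in one group, and at high levels blue points outnumber orange ones.

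Among abundant genes, more were called lower than higher. Over all genes tested, 12.1% were called lower and 13.9% higher. Of the 123 genes with a mean level over 1000 CPM in the 6 libraries, 38 (30.9%) were called lower and 3 (2.44%) higher. Of the 775 genes between 100 and 1000 CPM, 328 were called lower and 98 higher, with a median log2 fold change of -0.65. Between 10 and 100 CPM the balance was the other way, with 1364 genes called higher and 1025 lower among 6991. The 6137 genes between 1 and 10 CPM had 615 called higher and 429 called lower, and their median was 0.38. Over all genes above 100 CPM the median log2 fold change was -0.64, and it stayed between -0.85 and -0.41 under the alternatives tried. The sign of this median differed between short and long transcripts, as given below.

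The counts changed hands accordingly. Genes called lower held 39.5%, 40.0% and 42.7% of the counts outside the 6 abundant features in the controls and 15.8%, 16.5% and 12.7% under stress. Genes called higher held 3.29%, 3.29% and 4.12% in the controls and 15.2%, 17.4% and 20.4% under stress. The groups did not overlap in either share. These shares describe the called genes and are not a test, since the same libraries made the calls. Of the counts outside the 6 abundant features, 50% were held by 136, 142 and 181 genes in the controls. Under stress they were held by 189, 334 and 443 genes. Other measures of this spread overlapped between the groups. The top 100 genes of each library held 44.7%, 43.9% and 38.4% in the controls and 44.3%, 37.6% and 31.1% under stress. The top 10 held 11.5%, 10.8% and 8.75% in the controls and 10.2%, 9.30% and 6.87% under stress.

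**Figure D2:**
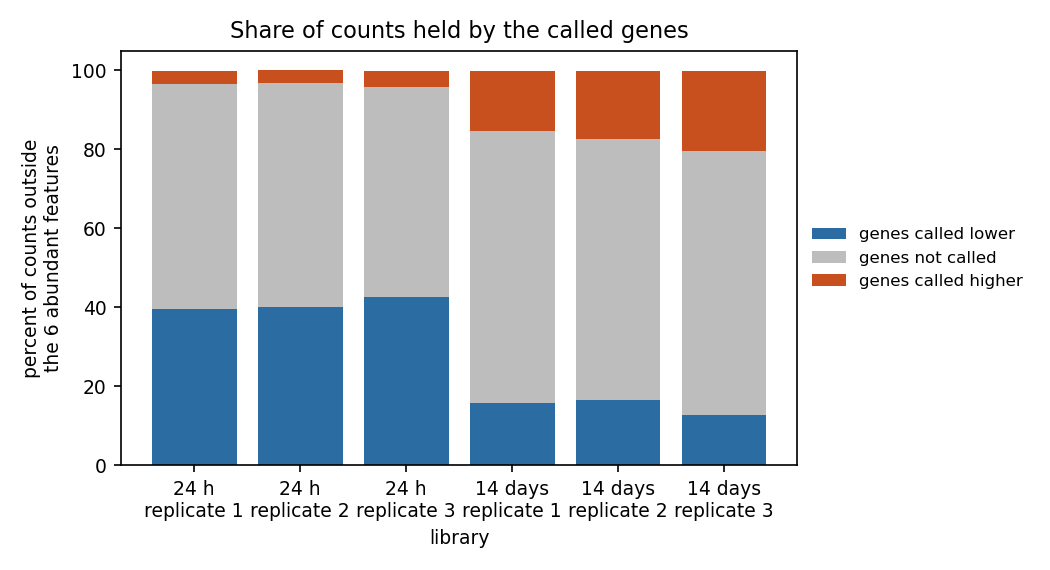
Share of each library's counts, outside the 6 abundant features, that fell in genes called lower (blue), not called (grey) and called higher (orange). The 3 libraries at 24 h have 39.5% to 42.7% in blue, and the 3 libraries at 14 days have 12.7% to 16.5%.

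By FPKM as the authors deposited it, which divides by transcript length and so allows levels to be compared between genes, the ranking changed in part. Deposited FPKM was scaled to total counts, including the 6 abundant features, so libraries rich in these, such as control replicate 1, weigh less in a group mean. Among the 100 genes with the highest mean FPKM in fresh cultures, outside the 6 abundant features, 86 were also among the 100 highest in old cultures, and 84 when each library's FPKM was first divided by its TMM factor. Of the 500 highest in fresh cultures, 355 were among the 500 highest in old ones, and 356 after that division. Of those 500, 309 were called lower, 3 higher and 188 neither. Of the 500 highest in old cultures, 65 were called higher and 174 were called lower and still ranked in this set. Over all genes tested, 12.1% were called lower and 13.9% higher. Each set was chosen for high levels in libraries that also made the calls. The choice favours lower calls in the fresh set and higher calls in the old set.

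The most abundant genes among those called lower were Cre02.g120150, Cre01.g066917 and Cre04.g232104. Cre02.g120150 had 10643, 12318 and 8062 CPM in the control libraries and 1182, 1009 and 502 CPM under stress. Its mean went from 10341 ± 2144 to 898 ± 354 CPM (SD, n = 3 each), a log2 fold change of -3.53 (adjusted p 0.00021 by edgeR, SE 0.43). Every stress library lay far below every control. The rule for naming abundant genes and large changes required groups that did not overlap, so the separation is no further support.

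Cre01.g066917 had 5573, 8984 and 10079 CPM in the controls and 899, 1084 and 448 CPM under stress, a log2 fold change of -3.34 (adjusted p 0.00023 by edgeR, SE 0.41). Cre04.g232104 had 6503, 6053 and 8110 CPM in the controls and 496, 449 and 371 CPM under stress, a log2 fold change of -3.97 (adjusted p 2.4e-05, SE 0.34). In both genes the groups were well apart, and stress replicate 3 was the lowest library, as it was for Cre02.g120150. All 3 genes were called under each of the 17 alternatives.

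The 3 called-higher genes with a mean level over 1000 CPM were also the most abundant under stress among those that rose. Cre03.g159500 had 806, 815 and 423 CPM in the controls and 3230, 3166 and 4046 CPM under stress, a log2 fold change of 2.35 (adjusted p 0.00021 by edgeR, SE 0.29). Cre07.g323800 had 474, 503 and 319 CPM in the controls and 3298, 4342 and 2353 CPM under stress, a log2 fold change of 2.95 (adjusted p 8.0e-05, SE 0.31). In each gene control replicate 3 was the lowest library, and no stress library came near the controls. By deposited FPKM, Cre07.g323800 was the more abundant of the pair in old cultures, with a mean of 3136 against 860.5. The transcript lengths implied by the deposited values were 877 nt and 3389.5 nt.

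Cre06.g298650 changed least of the 3, with 1203, 1295 and 1557 CPM in the controls and 3099, 2568 and 3285 CPM under stress. Its log2 fold change was 1.14 (adjusted p 0.0035 by edgeR, SE 0.22). It was no longer called under library totals alone.

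The largest fitted changes belonged to genes that had no count in one group. Among called genes, 99 had at most 3 counts in every control library and 93 had at most 3 in every stress library. Cre10.g442800 had no count in the controls and 151, 125 and 80.7 CPM under stress, from 2588, 1010 and 860 counts. Set against 3 counts in the shallowest control library it was at least 133-fold higher (adjusted p 1.6e-05 by edgeR), or at least 542-fold without control replicate 1. Cre16.g661850 had 40.2, 47.3 and 12.9 CPM in the controls, from 135, 648 and 352 counts, and none under stress. It was at least 90.5-fold lower (adjusted p 0.00018 by edgeR), a bound that stayed between 71.8-fold and 119-fold when 1 library was left out.

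Cre17.g734125 and Cre12.g546550 were likewise without counts under stress. Cre17.g734125 had 43.1, 52.2 and 39.0 CPM in the controls, a narrow range. Cre12.g546550 had 22.9, 22.5 and 152 CPM, so control replicate 3 carried most of its mean: its bound was 178-fold with that library and 61.4-fold without it. Cre09.g410900 and Cre09.g410950, which had counts only under stress, are neighbours on chromosome 9 and are described with that run of genes.

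Genes with at least 10 counts in each of the 6 wild-type libraries give folds that do not rest on an empty group. The 3 largest in each direction among them were chosen after their values were seen. Cre04.g217350 had 3.27, 1.46 and 1.32 CPM in the controls and 130, 126 and 731 CPM under stress, a log2 fold change of 7.53 (adjusted p 0.00025 by edgeR, SE 0.94). Cre01.g053000 had 15.2, 9.64 and 3.52 CPM in the controls and 176, 206 and 3015 CPM under stress, a log2 fold change of 6.96 (adjusted p 0.0015, SE 1.17). Stress replicate 3 stood well above the other stress libraries in both. Without it the log2 fold changes were 6.09 for Cre04.g217350 and 4.32 for Cre01.g053000, and both were still called.

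Cre08.g367400 had 32.7, 22.9 and 6.09 CPM in the controls and 1037, 1496 and 3052 CPM under stress, a log2 fold change of 6.53 (adjusted p 0.00014 by edgeR, SE 0.74), or 5.89 without stress replicate 3. A gene with a nearby ID, Cre08.g367500, changed by nearly as much. It had 3.57, 4.67 and 3.23 CPM in the controls and 243, 286 and 528 CPM under stress, a log2 fold change of 6.52 (adjusted p 4.5e-06, SE 0.40). The 24 h libraries of Cre08.g367400 differed more among themselves than those of Cre08.g367500, which had only 12, 64 and 88 counts there. Under stress the counts were 17759, 12132 and 32521 for Cre08.g367400 and 4163, 2320 and 5631 for Cre08.g367500. Whether the pair share reads was not tested.

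In the other direction, Cre09.g402219 had 1291, 1673 and 4028 CPM in the controls and 7.07, 9.86 and 16.3 CPM under stress. Its log2 fold change was -7.72 (adjusted p 2.7e-05 by edgeR, SE 0.67), or -7.07 without control replicate 3. Cre13.g570851 was the steadiest of these genes, with 585, 503 and 595 CPM in the controls and 2.92, 2.71 and 3.19 CPM under stress, a log2 fold change of -7.57 (adjusted p 6.0e-08, SE 0.26). Cre06.g284600 had 383, 427 and 703 CPM in the controls and 4.03, 3.70 and 2.25 CPM under stress, a log2 fold change of -7.24 (adjusted p 2.6e-06, SE 0.38). All 3 fell more than 100-fold in mean CPM, by 210-fold, 191-fold and 152-fold, and were called under each of the 17 alternatives.

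**Figure D3:**
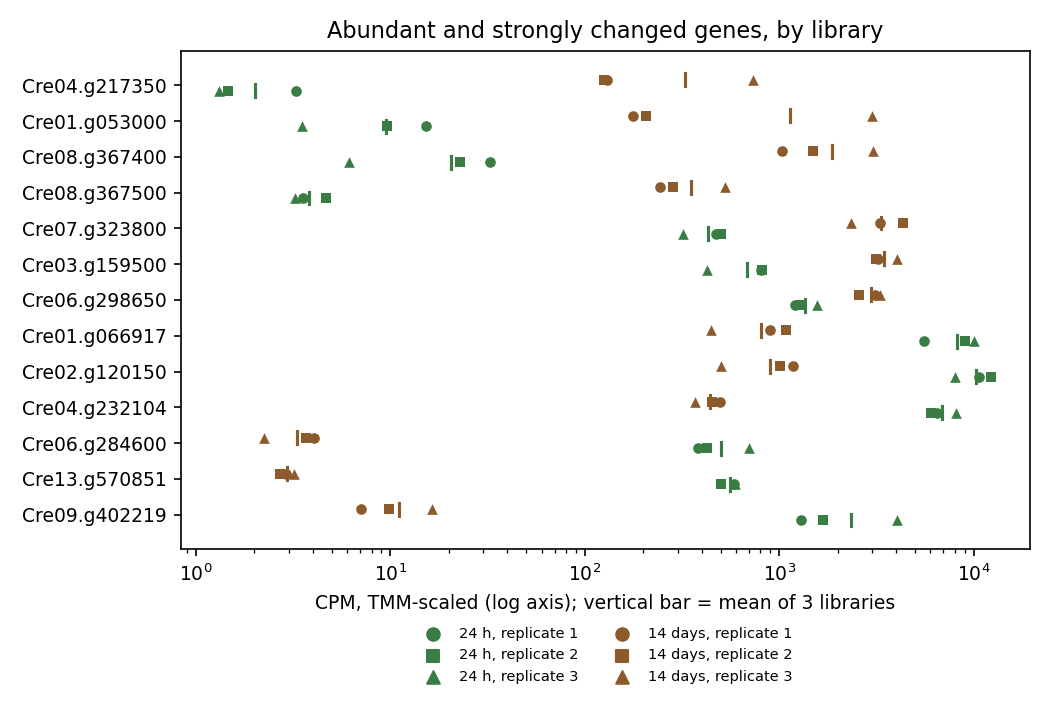
Level of 13 genes in each of the 6 wild-type libraries, in TMM-scaled CPM on a log axis. Green marks are 24 h, brown marks are 14 days, the shape gives the replicate and the vertical bar is the mean of 3 libraries. The groups are apart in every gene shown, which the rule for naming required of all but Cre08.g367500, chosen after its values were seen. The brown triangle of replicate 3 stands out in Cre04.g217350 and Cre01.g053000.

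Neighbouring genes were called in the same direction somewhat more often than genes in general. In the order of the reference annotation, the next gene was called higher after 16.8% of 1849 genes called higher, against 13.8% of all next genes. It was called lower after 16.0% of 1664 genes called lower, against 12.3% of all next genes. Runs of at least 4 adjacent genes called in one direction numbered 6 for higher and 6 for lower, with 52 genes in all. How many such runs the call rates alone would give was not computed, so the runs are described by their values only. Under the 17 alternatives only 9 of the 52 were called wherever they were tested. In 5 of the 12 runs no gene was: those on chromosomes 4, 6, 8 and 16, and the run on chromosome 9 with Cre09.g389850. The longest had 6 genes on chromosome 9 and 5 on chromosome 1 among the higher, and 5 on chromosome 3 among the lower. The strand setting of the counting is not given, and whether overlapping neighbours share reads was not tested.

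The run on chromosome 9 consists of Cre09.g410750, Cre09.g410800, Cre09.g410850, Cre09.g410900, Cre09.g410950 and Cre09.g411050. The first 5 had at most 5.35 CPM in any control library. Cre09.g410900 had no count in the 3 controls and 141, 594 and 930 CPM under stress. Cre09.g410950 had none in the controls and 13.4, 171 and 270 CPM under stress, and Cre09.g410800 none in the controls and 2.10, 17 and 32.3 CPM. The bounds on the fold were 622, 170 and 19.2, and 412, 103 and 10.7 without stress replicate 3. Without control replicate 1 they were 2533, 691 and 78.2. Their adjusted p-values by edgeR were 0.00012, 0.0017 and 0.012. Cre09.g410950 and Cre09.g410800 were not called by limma voom with sample weights.

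Cre09.g410750 had 0, 2.92 and 3.67 CPM in the controls and 159, 846 and 1499 CPM under stress, a log2 fold change of 8.35 (adjusted p 0.00034 by edgeR, SE 1.09). Cre09.g410850 had 5.35, 0.51 and 0.11 CPM in the controls and 97.6, 365 and 358 CPM under stress, a log2 fold change of 7.80 (adjusted p 0.0021, SE 1.26). The former was 7.46 without stress replicate 3. The latter ranged from 6.90 to 9.84 when 1 control was left out. In each of these 5 genes stress replicate 1 was the lowest of the stress libraries, and still above all controls.

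The run ended in a smaller change. Cre09.g411050 had 16.1, 26.1 and 15.2 CPM in the controls and 29.8, 61.9 and 63.9 CPM under stress, a log2 fold change of 1.43 (adjusted p 0.0069 by edgeR, SE 0.32). It lost the call under 3 of the 17 alternatives. The genes on either side were not called: Cre09.g410700 had a log2 fold change of -0.15 (adjusted p 0.73) and Cre09.g411100 one of -0.83 (adjusted p 0.15). Cre09.g411100 was itself abundant, at 1868, 1943 and 1504 CPM in the controls and 1524, 1004 and 462 CPM under stress.

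On chromosome 1 the run held Cre01.g008250, Cre01.g008300, Cre01.g008350, Cre01.g008402 and Cre01.g008450. Cre01.g008300 had 0, 0 and 0.55 CPM in the controls and 51.2, 43.6 and 56.7 CPM under stress. Its log2 fold change was 7.41 (adjusted p 5.2e-05 by edgeR, SE 0.73). All of its 15 control counts were in replicate 3, and the log2 fold change was 6.73 without control replicate 2 and 12.94 without control replicate 3. Cre01.g008350 had 1.19, 0 and 2.39 CPM in the controls and 36.0, 33.2 and 80.7 CPM under stress, a log2 fold change of 5.29 (adjusted p 0.0013, SE 0.87). It was 4.57 without control replicate 2, 7.41 without control replicate 3 and 4.63 without stress replicate 3.

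Cre01.g008250 and Cre01.g008402 were low in both states. Cre01.g008250 had 0, 0 and 3 counts in the controls and 59, 37 and 30 under stress. Cre01.g008402 had 0, 2 and 4 counts in the controls and 61, 34 and 42 under stress. Cre01.g008450 was present throughout, at 12.2, 19.7 and 21.1 CPM in the controls and 59.9, 59.3 and 65.8 CPM under stress, a log2 fold change of 1.79 (adjusted p 0.00028 by edgeR, SE 0.23). It was not called with library totals alone (adjusted p 0.11). The gene before the run, Cre01.g008200, was not called, with a log2 fold change of 0.36 (adjusted p 0.61). Of the pair after it, Cre01.g008500 was not called (-0.86, adjusted p 0.062) and Cre01.g008550 was called lower (-2.06, adjusted p 0.0011).

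**Figure D4:**
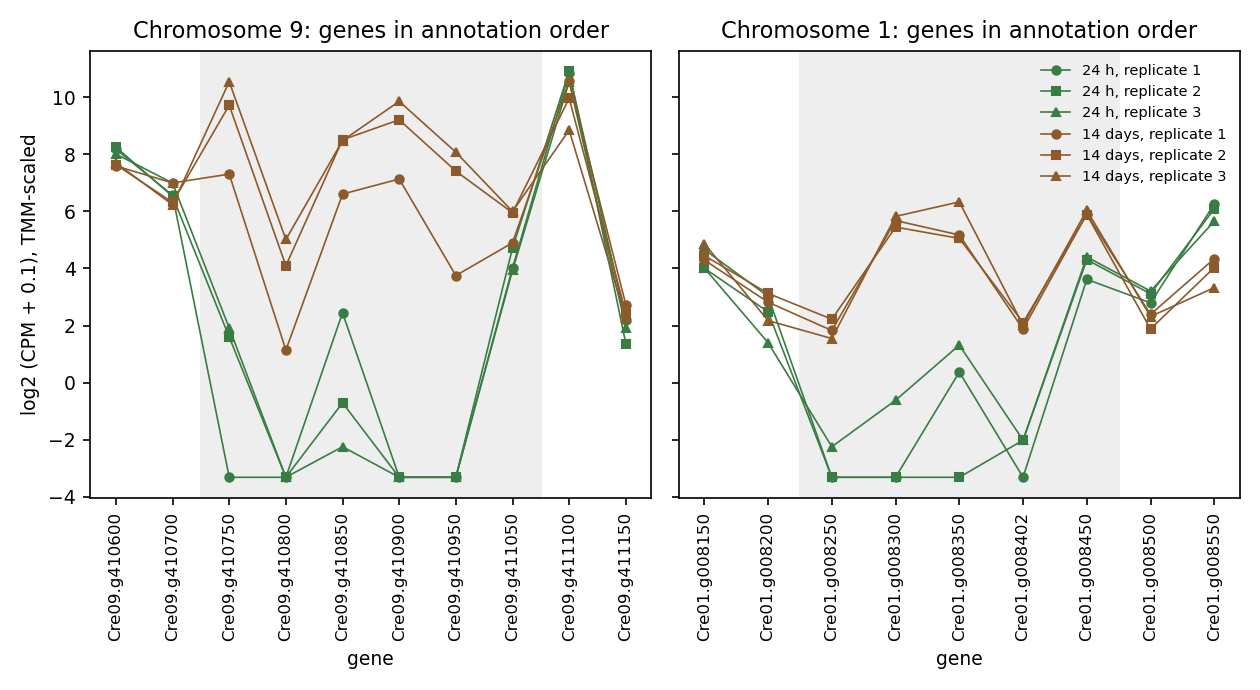
Levels along the run on chromosome 9 (left) and the run on chromosome 1 (right), with a pair of flanking genes on each side, in annotation order and not to scale. The vertical axis is log2 (CPM + 0.1), each line is 1 library, green for 24 h and brown for 14 days, and the grey band marks the run. Within the bands the brown lines lie above the green ones, and outside them only Cre01.g008550 was called, with the brown lines lower.

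The other 4 runs of higher genes had 4 genes each. That on chromosome 3, from Cre03.g159150 to Cre03.g159300, included Cre03.g159254, with no count in the controls and 20.5, 16.0 and 8.26 CPM under stress, at least 16.7-fold higher (68.1-fold without control replicate 1). Its neighbour Cre03.g159300 had 11.6, 12.7 and 22.1 CPM in the controls and 396, 368 and 308 CPM under stress, a log2 fold change of 4.51 (SE 0.38). The run on chromosome 4 (Cre04.g228625 to Cre04.g228700) had 3 genes with log2 fold changes from 1.17 to 4.72. Its last gene, Cre04.g228700, had 0 counts in the controls and 18, 10 and 4 under stress, a bound of 0.993-fold, so it was not shown to exceed 3 counts in the shallowest control. Cre04.g228700 was called at an adjusted p of 0.021, and not with library totals alone, without control replicate 2 or without stress replicate 2. The length of this run rests on it. A pair of runs on chromosome 9 ranged from 1.16 to 2.92 (Cre09.g389850 to Cre09.g389950) and from 1.54 to 4.73 (Cre09.g391600 to Cre09.g391753). In the latter, Cre09.g391650 had a log2 fold change of 4.73, and 3.22 without stress replicate 3.

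The 6 runs of lower genes had no log2 fold change beyond -3.91. In the run of 5 on chromosome 3, Cre03.g175050 had 59.8, 61.6 and 53.7 CPM in the controls and 5.14, 4.69 and 3.85 CPM under stress, a log2 fold change of -3.67 (adjusted p 7.9e-06 by edgeR, SE 0.25). The other genes of that run, Cre03.g175000, Cre03.g175100, Cre03.g175200 and Cre03.g175250, had log2 fold changes from -2.48 to -1.28. The last of them, at an adjusted p of 0.048, was called under only 5 of the 17 alternatives.

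The run on chromosome 10 contained an abundant gene between less abundant ones. Cre10.g425900 had 5212, 3568 and 1937 CPM in the controls and 269, 316 and 222 CPM under stress, a log2 fold change of -3.73 (SE 0.34). Its neighbours Cre10.g425850 and Cre10.g425950 changed by -1.91 and -1.17, from control means of 86.8 and 34.8 CPM. On chromosome 16, Cre16.g657250 had 200, 183 and 57.2 CPM in the controls and 1.52, 2.47 and 25.3 CPM under stress. Its log2 fold change was -3.91, and -6.33 without stress replicate 3, the stress library nearest to the controls. The call was lost under 3 of the 17 alternatives. The runs on chromosomes 6, 7 and 8 had log2 fold changes from -3.85 to -0.78.

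Transcript length went with the direction of change. Lengths were recovered for 13681 of the tested genes (89.5%) from the ratio of deposited count to deposited FPKM, which varied between libraries with a median coefficient of variation of 0.493%. Genes called lower had a median length of 2062 nt, genes not called 2770 nt and genes called higher 3468 nt. The genes were then split into 5 classes of nearly equal size by length. In the shortest class, 250 to 1744 nt, 23.3% of genes were called lower and 7.16% higher. In the longest, above 4771 nt, 5.85% were called lower and 22.7% higher. The median log2 fold change went up through the classes, from -0.34 to -0.04, 0.15, 0.36 and 0.55.

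The median log2 fold change was higher in the longest than in the shortest length class at levels from 1 to 1000 CPM. Among genes with a mean of 1 to 10 CPM it was 0.12 in the shortest class (1028 genes) and 0.55 in the longest (1205 genes). The shortest class thus had a positive median at that level. Among genes with a mean of 10 to 100 CPM the median log2 fold change was -0.47 in the shortest class (1337 genes) and 0.59 in the longest (1447 genes). Among genes over 100 CPM it was -0.93 in the shortest class (339 genes), then -0.72, -0.58 and 0.31, and 0.46 in the longest (61 genes). Over 1000 CPM the longest class held only 1 gene, so the classes could not be compared there. The median level was 14.7 CPM in the shortest class and 11.2 CPM in the longest. CPM is not divided by transcript length, so classes of equal CPM do not match short and long genes for transcript abundance.

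Library by library, the longest class minus the shortest class, in median log2 (CPM + 0.5) relative to the mean of the 6 libraries, was -0.32, -0.48 and -0.50 in the controls. It was 0.22, 0.28 and 0.80 under stress. The groups did not overlap, and their means differed by 0.87 (exact two-sided permutation test over libraries, p = 0.1, the smallest that 3 against 3 can give). Stress replicate 3 stood apart from the other stress libraries in this value too. In the vip1-1 libraries the difference between old and fresh cultures went the same way, from -0.40 in the shortest class to 0.50 in the longest, against -0.27 and 0.60 for wild-type computed alike. RNA integrity and fragment sizes are not given in the sources used here, and their part in this relation was not tested.

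With the length trend removed from each library, a step added after the trend had been seen, 3593 of 13681 genes were called. They included 3086 of the 3979 genes called without it, all in the same direction. Only 2055 of the 2124 higher and 1823 of the 1855 lower genes had a recovered length, so the rest could not be tested there. Of the 68 genes named by rule or as members of a run, 63 were still called, 4 were not and 1 had no recovered length.

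**Figure D5:**
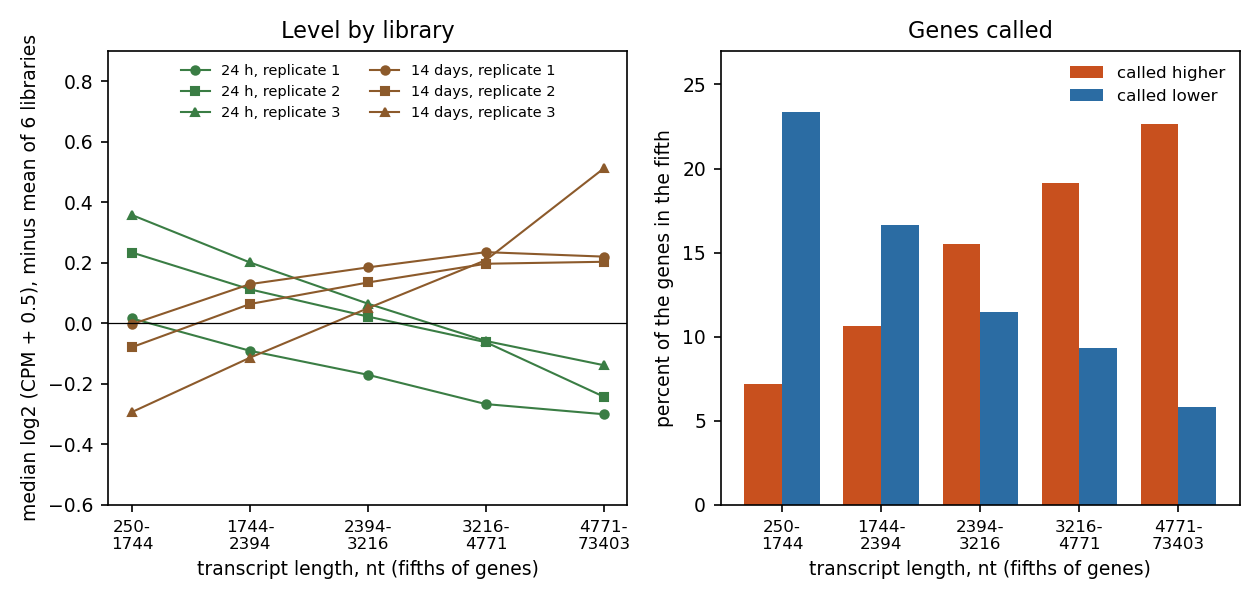
Left: median level of the genes in each length class in each library, in log2 (CPM + 0.5) relative to the mean of the 6 libraries, with 24 h in green and 14 days in brown. Right: percent of the genes in each class called higher (orange) or lower (blue). The green lines fall with length, the brown lines rise from the first to the fourth class, and the bars cross between the second and the middle class.

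The replicates were not equally far from the other state. For 52.7% of the genes called higher and 49.3% of those called lower, control replicate 3 was the control closest to the mean of the stress libraries. Control replicate 2 was the closest for 21.3% and 17.8%. On the other side, stress replicate 3 was the stress library closest to the controls for 43.7% of the higher genes, and stress replicate 1 for 48.3% of the lower genes. Control replicate 3 was also the deepest of the 6 libraries outside the 6 abundant features.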

How the data were processed

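Polyadenylated RNA from 12 samples was sequenced from stranded mRNA libraries, per the labels' protocols. The authors deposited a table of raw counts per gene and a table of FPKM (fragments scaled by transcript length and library size). HISAT2 and StringTie are named in the submitters' processing notes. Genome build, annotation and strand setting are not given in the sources used here. Of 17741 gene IDs, 17738 matched RefSeq locus tags, 0 of them with a symbol, so the planned functional lists were not used here and the reference gave only the order of genes.

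Counts were tested with edgeR 4.0.16 (R 4.3.3): TMM scaling, filterByExpr, robust quasi-likelihood fit of 4 group means over 12 libraries, contrast of wild-type stress minus wild-type control, Benjamini-Hochberg adjustment, threshold 0.05. The SE given for a log2 fold change is its absolute value divided by the square root of the test's F statistic. The 6 abundant features are the one with the most counts plus any with a correlation to it over 0.98 in log counts. They were kept in the test. Alternatives used DESeq2 1.42.0 and limma 3.58.1, among 17 in all. The procedure was run on simulated data with far fewer changed genes and no length trend. That run does not show how the procedure performs on data like these. A fold against a group with no counts was set against 3 counts in its shallowest library and is a lower bound, which covers counting error only.

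Genes named for abundance or fold had an adjusted p under 0.05, a mean of at least 10 CPM in a group and groups that did not overlap. They were the 3 most abundant and the 3 of largest fold in each direction. Genes in runs of at least 4 called neighbours were named by their calls alone, with no minimum level and no rule on overlap. The 3 of largest fold with at least 10 counts in all 6 libraries, Cre08.g367500 and the flanks of runs were added after values were seen. The genes, lists and rules were chosen with earlier results of these data known.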

Additional observations from a re-analysis of the deposited data

How the results depend on the processing

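The count of 3979 genes called (2124 higher, 1855 lower) was 1035 (516 and 519) with library totals alone, 1972 (839 and 1133) with only the 6 wild-type libraries and 6151 (3267 and 2884) with limma voom and sample weights. With the replicate number as a block it was 769 (312 and 457) in the 6 wild-type libraries and 4067 in all 12. Same-numbered control and stress libraries deviated from their group means with correlations of -0.13, 0.08 and -0.04, so the numbers were not taken to pair them. With the block in the 6 libraries 40 of the 67 named genes tested were not called, among them Cre06.g298650, Cre01.g053000, Cre09.g410800, Cre09.g410850, Cre01.g008250, Cre01.g008350 and Cre01.g008402. Leaving out 1 library gave 2740 to 5263 calls, 1298 to 3132 higher and 1372 to 2131 lower. The other alternatives, DESeq2 with 5146 calls among them, stayed within 1.5 times. In all 17 alternatives, every gene also called in the full fit kept its sign. Of the 68 genes named by rule or in runs, 23 were called under every alternative that tested them. The median log2 fold change of the shortest length class, -0.34, was 0.12 with the length trend removed, and the longest minus the shortest class went from 0.89 to -0.016, which that step does by construction. When 1 library was left out the latter stayed between 0.69 and 1.01. Control replicate 1, with 2829344 counts outside the abundant features, sets the weakest bounds on genes without control counts.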

Other observations

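Calls were found on all 17 chromosomes, as numbered in the gene IDs. The share of tested genes called higher ran from 11.1% on chromosome 15 (20 of 180) to 18.1% on chromosome 4 (87 of 481). The share called lower ran from 7.78% on chromosome 15 to 14.4% on chromosome 6 (193 of 1344). Over all genes tested, 13.9% were called higher and 12.1% lower. These shares are values without a test.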
